A study of Mus musculus with 4 samples.

Results

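Zfp-type zinc-finger genes are taken here as the genes whose symbol begins with Zfp, Zkscan, Zscan, Zik or Znf followed by a number. They were chosen by name and by level. Of 24087 genes listed, 423 carried such a symbol, and the 295 described below were selected on an FPKM of 1 or more in at least 2 of the 4 libraries. FPKM divides the sequenced fragments of a gene by its length and by the library total. The level that chose them is not a finding. Of the 128 left out, 15 were at 0 in all 4 libraries and the highest single value was an FPKM of 1.18. Just inside the limit stood Zfp248, at 1.18 and 1.03 in control and 0.518 and 0.678 in knockout libraries. Just outside it stood Zfp418, at 1.095 and 0.952 in control and 0.273 and 0.564 in knockout libraries. Among the 295, 17 passed only through the control libraries and 1 only through the knockout libraries, so these 18 had to differ in that direction.

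The libraries came from splenic regulatory T (Treg) cells of C57BL/6 mice, sorted as CD3+CD4+YFP+. The knockout (KO) mice were Foxp3Cre-YFPSetd2f/f and the controls (CTRL) were Foxp3Cre-YFPSetd2f/+ littermates, and the study's methods give ages of 6 to 12 weeks for its mice unless stated otherwise. Each genotype had 2 libraries, named CTRL 1, CTRL 2, KO 1 and KO 2, and each library held about 1000000 cells pooled from 2 mice by the series' own record and from 2 to 3 by the study's methods. All mice carried the Foxp3Cre-YFP allele, which drives Cre in Foxp3-expressing cells, and the controls carried 1 floxed Setd2 allele as well, so a heterozygous deletion is the baseline of every comparison. The comparison asks which transcripts change in Treg cells when Setd2, the enzyme that trimethylates lysine 36 of histone H3 (H3K36me3), is deleted. With 2 libraries per genotype, p-values measure the spread between these pools.

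The FPKM steps gave at least 30486706 reads per library and at most 33108964 as the lower bound in the deepest one. Setd2 itself stood at an FPKM of 23.4 and 25.3 in CTRL and 21.3 and 19.5 in KO (log2 fold change -0.24, adjusted p = 0.097). This value covers the whole gene and was not split by exon, so it is a weak check of the labels. Why the difference was small was not tested. The 6 Treg and T cell markers (Foxp3, Il2ra, Ctla4, Ikzf2, Cd3e and Cd4) summed to an FPKM of 1373 to 1454 in the 4 libraries. The 4 myeloid markers summed to 189 and 119 in CTRL and 226 and 96.3 in KO, the 4 B cell markers to 21.6 and 18.2 in CTRL and 31.3 and 18.3 in KO, and the 3 erythroid markers to 12.2 and 2.21 in CTRL and 19.9 and 5.02 in KO. These sums were higher in the libraries numbered 1 than in those numbered 2 in both genotypes, and Hbb-bs was at 0 in 3 of the 4 libraries. The 2 CD8 T cell markers went the other way, with sums of 8.49 and 11.4 in CTRL and 10.6 and 11.3 in KO. Mki67, a marker of proliferating cells, rose from 31.8 and 24.3 in CTRL to 45.1 and 44.7 in KO (log2 fold change 0.67, adjusted p = 0.0433). The part of other cells and of proliferation in the results below was not tested, and in bulk RNA fewer cells of a type and less RNA per cell cannot be told apart.

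Most mouse Zfp genes encode proteins with tandem C2H2 zinc fingers, short loops held by zinc that together read a stretch of DNA. Many also carry a KRAB domain, which recruits the corepressor TRIM28 (KAP1) and with it the H3K9 methyltransferase SETDB1 and heterochromatin protein HP1, and KRAB zinc-finger proteins are best known for silencing transposable elements. A smaller group carries a SCAN domain, through which the proteins pair with each other. The genes lie largely in tandem clusters that arose by duplication, and their 3' exons are known for carrying H3K36me3 together with H3K9me3.

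Transcripts of the Zfp-type genes were mostly lower in KO than in CTRL Treg cells. Of the 295 genes, 45 fell and 1 rose in KO (limma, Benjamini-Hochberg adjusted p under 0.05 over all 11399 genes tested), and 249 did not pass the threshold. Over all genes tested, 4.65% were called lower and 5.10% higher, whereas 15.3% of the Zfp-type genes were called lower and 0.339% higher. The median log2 fold change was -0.26 over the 295 genes, with quartiles at -0.42 and -0.07, and -0.02 over all genes tested. In 249 genes (84.4%) the fold change was below 0, against 53.8% of all genes tested. Each KO value was below each CTRL value in 199 of the 295 genes (67.5%, against 35.5% of all genes tested), and above both in 22, where the background was 29.0%. At an unadjusted p under 0.05, 138 were lower and 11 higher, where 18.4% and 16.3% of all genes tested were. The 18 genes that passed the filter through 1 genotype only had their direction fixed by it. Without them, 45 of 277 fell, the median was -0.24, and each KO value was below each CTRL value in 182 (65.7%). Zfp-type genes made up 2.59% of the genes tested and 8.49% of all genes called lower. Fold changes are differences of log2(FPKM + 1), which understates the change of weakly expressed genes. On the FPKM scale itself the 45 genes were 21.9% to 58.7% lower, with a median of 39.8%.

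The calls rest on 2 libraries per genotype, and their number moved with the processing. Of the 295 genes, 26 were called lower with quantile normalization, 92 with limma-voom on recovered reads and 0 with all genes above 0 tested. All 45 fallen genes kept a fold change below 0 in each of the 16 other settings in which they were tested, but none passed the threshold once any 1 library was left out: 0 of 45 passed without CTRL 1, without CTRL 2, without KO 1 or without KO 2, when 0 or 1 of all genes tested was still called lower. The median over the 295 genes was then -0.25, -0.27, -0.21 and -0.29.

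The domain classes, found by searching the translated coding sequences, differed in how many genes fell. Of 155 genes with a KRAB domain, 29 fell (18.7%) and 0 rose (at an unadjusted p under 0.05, 89 were lower and 1 higher, and limma-voom on recovered reads called 61 lower and 0 higher), with a median log2 fold change of -0.34 (-0.33 over the 142 not fixed in direction by the filter) and 140 fold changes below 0. Of 24 genes with a SCAN domain and no KRAB match, 6 fell and 0 rose (13 lower and 1 higher at that unadjusted p, 8 and 1 by limma-voom), with a median of -0.26, and only 2 fell with the exon length trend removed. Among the 107 genes with C2H2 fingers and neither domain, 9 fell and 1 rose (33 lower and 7 higher, and 21 and 1 by limma-voom), with a median of -0.13. Over all genes tested, limma-voom called 8.89% lower and 7.69% higher. In the remaining 9 genes no C2H2 finger was found, and of these the pseudogene Zfp783 fell. The 4 genes that carry both KRAB and SCAN, counted with the KRAB genes, were Zfp369 and Zfp445, which fell, and Zfp287 and Zfp110, at -0.31 and -0.18. No test of the difference between classes was made.

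**Figure D1:**
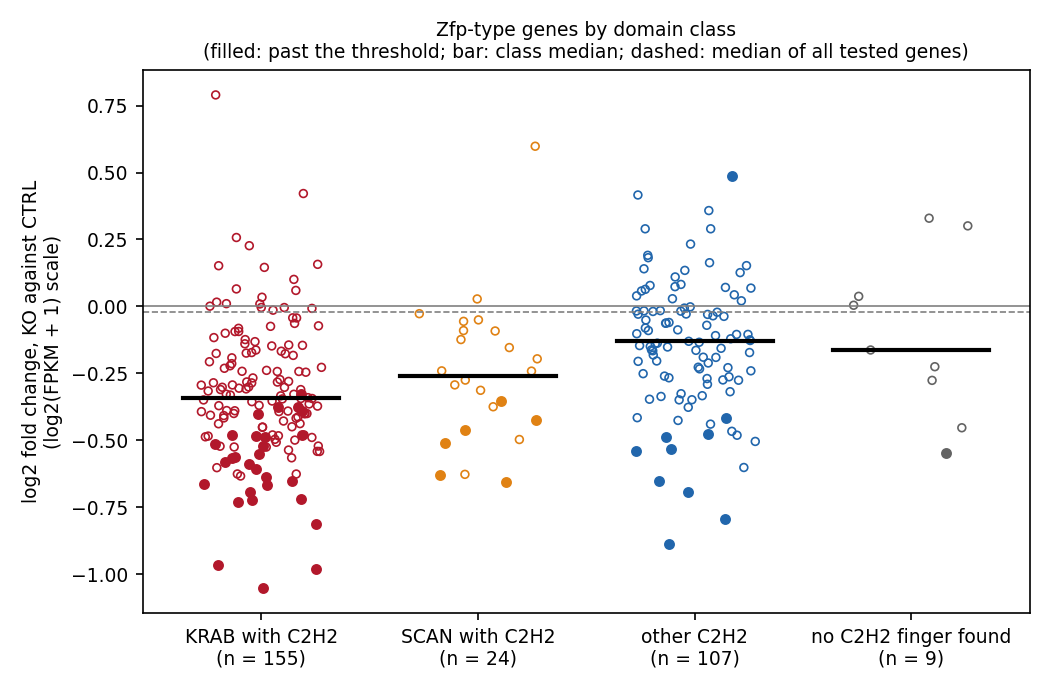
Log2 fold change of each Zfp-type gene, KO against CTRL, on the log2(FPKM + 1) scale (vertical axis), by domain class (horizontal axis, with points spread sideways for display only). Filled points passed the threshold, black bars are class medians (-0.34 for KRAB, -0.26 for SCAN, -0.13 for other C2H2 genes), the solid line is 0 and the dashed line is the median of all tested genes at -0.02.

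The same direction was seen in KRAB zinc-finger genes that the naming rule leaves out. Of 21 such genes tested under other symbols, 4 fell (Gm14325, Gm14305, Gm14326 and Rbak), 20 had a fold change below 0, and the median was -0.35. Rbak, which encodes an RB-associated KRAB protein, stood at an FPKM of 6.39 and 5.88 in CTRL and 3.41 and 2.91 in KO (log2 fold change -0.78, adjusted p = 0.0351). The 3 Gm genes lie in 1 family on chromosome 2, and their values may share reads. Among 292 genes with C2H2 fingers, no KRAB domain and other symbols, 18 fell and 6 rose, with a median of -0.07.

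On the log2(FPKM + 1) scale the lowest fold change belonged to Zfp12, a KRAB gene with 15 fingers at chr5:143235163-143248834 (GRCm38, plus strand). Zfp12 had an FPKM of 9.69 and 10.7 in the CTRL libraries and of 4.61 and 4.15 in the KO libraries, a decrease of 56.9% (log2 fold change -1.05, SE 0.092, adjusted p = 0.0299). Its CTRL and KO values were far apart, and it carried at least 629 reads in each library. The promoters of 5 genes that fell are shown for their place or a motif: Zfp12, the 3 genes that fell in 1 cluster on chromosome 7 (Zfp420, Zfp82 and Zfp260), and Zfp329, which holds a motif. Each runs from 250 bases before to 50 bases after the annotated start (RefSeq, GRCm38.p6), 5' to 3' on the gene's strand, and capitals mark matches to the NRF1 motif. They lie at chr5:143234913-143235212 (Zfp12, plus strand), chr7:29859762-29860061 (Zfp420, plus), chr7:30072774-30073073 (Zfp82, minus), chr7:30094826-30095125 (Zfp260, plus) and chr7:12818811-12819110 (Zfp329, minus).
Zfp12: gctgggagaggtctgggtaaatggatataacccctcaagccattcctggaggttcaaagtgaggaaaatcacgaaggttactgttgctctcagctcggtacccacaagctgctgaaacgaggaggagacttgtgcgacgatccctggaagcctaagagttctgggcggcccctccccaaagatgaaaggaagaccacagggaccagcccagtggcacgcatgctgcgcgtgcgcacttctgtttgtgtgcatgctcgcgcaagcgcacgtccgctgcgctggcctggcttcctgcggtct
Zfp420: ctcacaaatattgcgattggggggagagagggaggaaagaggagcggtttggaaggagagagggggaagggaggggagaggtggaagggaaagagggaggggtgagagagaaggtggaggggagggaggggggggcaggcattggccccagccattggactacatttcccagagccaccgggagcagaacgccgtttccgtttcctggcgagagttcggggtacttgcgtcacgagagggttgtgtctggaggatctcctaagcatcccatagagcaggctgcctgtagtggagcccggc
Zfp82: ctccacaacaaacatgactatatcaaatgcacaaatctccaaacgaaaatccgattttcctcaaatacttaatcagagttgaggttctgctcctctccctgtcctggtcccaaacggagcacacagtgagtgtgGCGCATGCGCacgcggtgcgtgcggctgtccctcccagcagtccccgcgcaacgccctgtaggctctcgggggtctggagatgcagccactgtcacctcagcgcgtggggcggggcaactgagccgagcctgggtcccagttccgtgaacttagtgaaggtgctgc
Zfp260: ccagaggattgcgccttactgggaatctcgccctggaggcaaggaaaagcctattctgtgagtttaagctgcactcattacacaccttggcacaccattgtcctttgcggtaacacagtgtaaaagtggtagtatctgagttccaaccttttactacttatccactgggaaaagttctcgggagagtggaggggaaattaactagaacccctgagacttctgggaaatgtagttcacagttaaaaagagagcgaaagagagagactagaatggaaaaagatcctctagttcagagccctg
Zfp329: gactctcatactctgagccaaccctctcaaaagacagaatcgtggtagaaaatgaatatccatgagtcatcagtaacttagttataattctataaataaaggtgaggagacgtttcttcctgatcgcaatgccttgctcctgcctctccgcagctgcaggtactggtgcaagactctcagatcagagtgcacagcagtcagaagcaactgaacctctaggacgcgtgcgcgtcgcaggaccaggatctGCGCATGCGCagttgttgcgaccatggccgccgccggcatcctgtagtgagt

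The letters of 6 motifs were searched on both strands in the promoters of the 248 Zfp-type genes with an entry (297 promoters). They were NRF1 (GCATGCGC), ETS (CCGGAAGT), CRE (TGACGTCA), SBS (the ZNF143 element, ACTACAATT), YY1 (AAGATGGCG) and an E-box (CACGTGACC). NRF1 letters stood in 5 of 41 promoters of the genes that fell (12.2%), against 5.05% of the promoters of all Zfp-type genes, 5.43% of those of tested genes and 2.71% of all promoters. The 5 genes were Zfp329, Zfp82, Zfp658, Zfp141 and Zscan29. ETS letters stood in 12.2% of the promoters of fallen genes, in 11.8% of those of all Zfp-type genes, in 8.74% of those of tested genes and 3.89% of all promoters. CRE letters stood in 1 of the 41 (2.44%, against 3.16% of tested genes and 1.79% of all promoters), while SBS (0.755% of tested genes and 0.393% of all promoters), YY1 (3.22% and 1.40%) and the E-box (2.34% and 1.11%) stood in none. The median number of CG pairs was 15 in Zfp-type promoters, 11 in those of KRAB genes and 22 in those of other C2H2 genes, against 20 in tested genes and 7 in all promoters. Overlapping matches on the 2 strands were marked as 1 run. These matches are letters in a window, and their shares were not tested.

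Of other genes with low fold changes, 3 fell further than Zfp12 in percent of FPKM. Zfp61, a KRAB gene on chromosome 7, went from 5.64 and 5.81 in CTRL to 2.26 and 2.56 in KO (log2 fold change -0.98, SE 0.097, adjusted p = 0.0306). Zfp369, which with Zfp110 belongs to a pair first described as interacting with the neurotrophin receptor p75, had an FPKM of 4.80 and 4.73 in CTRL and 2.29 and 1.65 in KO (-0.97, SE 0.135, adjusted p = 0.0351). Zfp329, with 12 fingers and no KRAB match, had 4.07 and 3.65 in CTRL and 1.45 and 1.81 in KO (-0.89, SE 0.122, adjusted p = 0.0351). In these 3 genes the KO mean was 57.8% to 58.7% below the CTRL mean. With a pseudocount of 0.1 Zfp369 had the lowest fold change of the 4, at -1.25, and Zfp12 was at -1.20. Zfp870, a KRAB gene of the chromosome 17 cluster, was at 3.29 and 2.79 in CTRL and 1.04 and 1.58 in KO (-0.81, SE 0.160, adjusted p = 0.0450). Zfp90, Zfp874b, Zfp971, Zfp788, Zfp28, Zkscan8 and Zfp784 followed, with log2 fold changes of -0.72 to -0.65 and adjusted p of 0.0352 to 0.0451. Some of these values can hold reads of a near-identical sequence. Zfp90 shares 74.7% of its 100-base stretches with transcripts of another annotated gene, and Zfp784, which overlaps Zfp865 on the other strand, shares 94.6%.

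**Figure D2:**
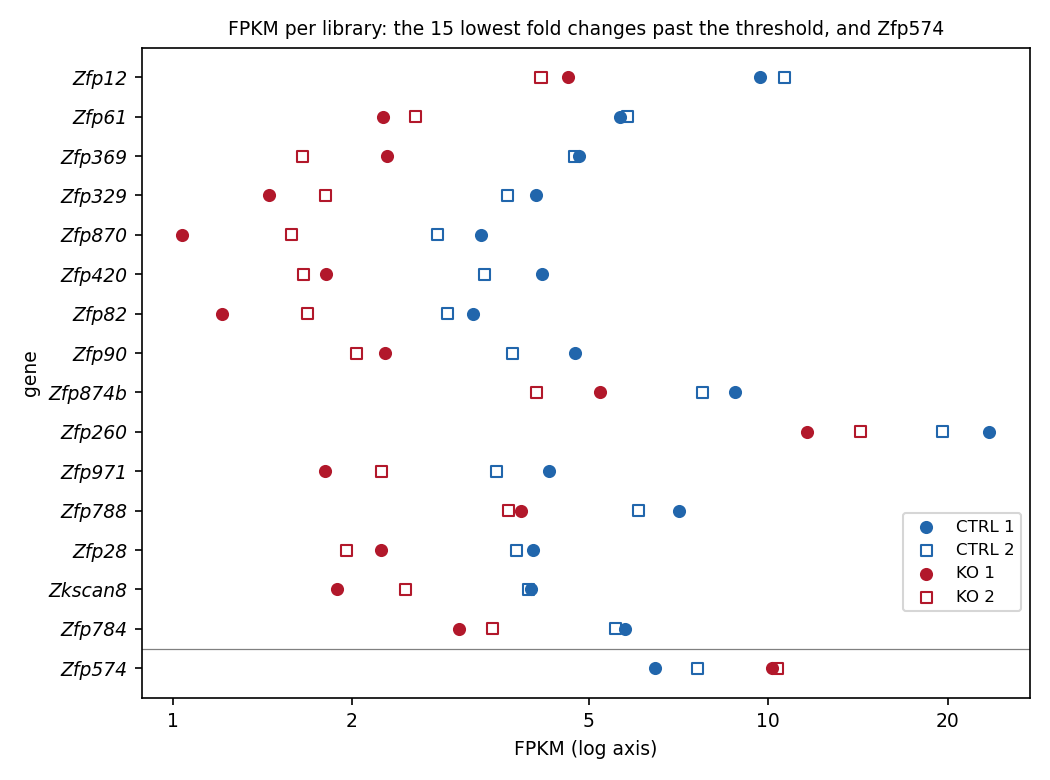
FPKM (horizontal log axis) of the 15 Zfp-type genes with the lowest fold changes past the threshold and of Zfp574, the only one that rose (vertical axis). Blue symbols are the CTRL and red symbols the KO libraries, circles are numbered 1 and squares 2. In the 15 upper genes both KO values lie left of both CTRL values, and in Zfp574 they lie right.

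Several Zfp-type genes have a known role in silencing retroviruses or imprinted genes. Zfp445, a KRAB gene that protects genomic imprints, had an FPKM of 27.1 and 25.1 in CTRL and 17.9 and 18.98 in KO (log2 fold change -0.48, SE 0.070, adjusted p = 0.0351), without overlap. Zfp809, which recognises the primer binding site of murine retroviruses and starts their silencing, went from 13.2 and 12.7 in CTRL to 10.1 and 10.2 in KO (-0.33, SE 0.067, adjusted p = 0.0481), the smallest decrease among the 45. Zkscan3, a repressor of autophagy genes, went from 35.8 and 31.6 in CTRL to 25.3 and 23.0 in KO (-0.46, SE 0.088, adjusted p = 0.0430). All 3 are well expressed, and each CTRL value was above each KO value. Zfp995, Zfp961, Zfp623, Zfp956, Zfp141, Zfp7, Zfp317 and Zscan29 were further genes that fell, at log2 fold changes of -0.49 to -0.35. Other genes with a role in silencing did not pass. Zfp568, which silences a placental promoter of Igf2, was at 2.84 and 2.69 in CTRL and 2.06 and 2.12 in KO (-0.29, adjusted p = 0.121). Zfp932, a repressor of endogenous retroviruses, was at 1.91 and 1.24 in CTRL and 1.01 and 1.20 in KO (-0.28, adjusted p = 0.301). Zfp57, the other factor known to protect imprints, was at an FPKM of 0.157 or less in every library and is not among the 295 genes.

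The gene that rose was Zfp574, with 18 fingers and no KRAB match, at chr7:25072567-25083492. Its FPKM was 6.46 and 7.61 in CTRL and 10.1 and 10.4 in KO (log2 fold change 0.49, SE 0.096, adjusted p = 0.0446). The KRAB gene Zfp429 had a larger fold change of 0.79 that did not pass (adjusted p = 0.148). Its FPKM was 3.07 and 2.77 in CTRL, 3.87 in KO 1 and 8.42 in KO 2, so that 1 KO library stood apart from the other 3. Zscan10, known from pluripotent cells, was at 0.766 and 0.768 in CTRL and 1.9998 and 1.39 in KO (0.60, adjusted p = 0.0721), and is the gene that passed the filter only through KO.

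The most abundant Zfp-type genes did not encode KRAB proteins. The 3 highest belong to the Zfp36 family, whose CCCH fingers bind AU-rich elements of mRNA and promote its decay. Zfp36 (tristetraprolin) was at an FPKM of 794 and 850 in CTRL and 826 and 862 in KO (log2 fold change 0.04, adjusted p = 0.724). Its CTRL and KO values overlapped. Zfp36l2 was at 464 and 445 in CTRL and 369 and 298 in KO (-0.45, SE 0.110, adjusted p = 0.0620), and Zfp36l1 at 337 and 376 in CTRL and 306 and 282 in KO (-0.28, SE 0.079, adjusted p = 0.0818). In both paralogs each KO value lay below each CTRL value, but neither passed the threshold. Zfp36l1 passed with quantile normalization only (adjusted p = 0.0386). Zfp36l2 passed in 4 of the other settings (the filter on a mean FPKM above 5, quantile normalization, the replicate block and limma-voom on recovered reads), with adjusted p of 0.0199 to 0.0499 there.

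Further genes were named for their level or for a known function. Among them Zfp110 carries KRAB and SCAN domains. Zfp207 (BuGZ), a spindle and kinetochore protein, was at 69.6 and 59.6 in CTRL and 72.6 and 70.7 in KO (0.15, adjusted p = 0.271), and Zfp622, a ribosome biogenesis factor, at 40.7 and 41.3 in CTRL and 59.0 and 47.2 in KO (0.36, adjusted p = 0.0969). Zfp281, a repressor studied in pluripotent cells, was at 36.4 and 37.0 in CTRL and 48.7 and 41.8 in KO (0.29, adjusted p = 0.0867). None of the 3 passed, although in each both KO values lay above both CTRL values. Zfp384, Zfp362, Zfp740, Zfp598 (a ubiquitin ligase of collided ribosomes) and Zfp91 (a ubiquitin ligase) had fold changes of -0.13 to 0.13. Zfp335, needed for T cell maturation, had a fold change of 0.19 (adjusted p = 0.114). Zfp143 (-0.28), Zfp318 (-0.24), Zfp131 (-0.23), Zfp217 (-0.19), Zfp106 (-0.18), Zfp110 (-0.18), Zfp292 (-0.15), Zfp148 (-0.13), Zfp326 (-0.10) and Zfp64 (0.07) did not pass either, with adjusted p of 0.0922 to 0.601. By level, 25 of 150 Zfp-type genes with a mean FPKM of 5 or more fell and 1 rose, with a median of -0.16, and 20 of 145 with a lower mean fell, with a median of -0.35. The 17 genes that passed the filter only through CTRL and the 1 only through KO all had the lower mean. The median of -0.35 is therefore partly set by the filter, and it was not recomputed without them.

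The genes that fell were spread over clusters as well as single loci. A cluster was a run of at least 3 Zfp-type genes, of any level, whose starts lay no more than 300 kb apart. There were 36 clusters, and 162 of the 295 genes lay in them. Of these 162, 35 fell and 0 rose (at an unadjusted p under 0.05, 88 were lower and 2 higher, and limma-voom on recovered reads called 65 lower and 1 higher), with a median of -0.33. Of the 133 outside, 10 fell and 1 rose (50 lower and 9 higher at that unadjusted p, and 27 and 1 by limma-voom), with a median of -0.16. Of the 277 genes not fixed in direction by the filter, 151 lay in clusters, and neither median was recomputed for them. Domain class and place go together, since 117 of the 155 KRAB genes lay in clusters. KRAB genes had medians of -0.35 inside and -0.31 outside, with 19.7% and 15.8% called lower. Of the 107 genes with fingers and neither domain, 25 lay in clusters. Among these 25, 6 fell (24%, median -0.16). These 6 are among the 9 that fell in all 107 (8.41%, median -0.13), so the 2 shares are not of separate groups. Neighbours of other kinds inside clusters, 46 tested genes without a Zfp-type symbol or KRAB domain, had a median of 0.03, with 1 lower and 1 higher. They were spread unevenly. Of them, 17 lay in the cluster chr7:127233061-127885996, where the Zfp-type genes had a median of 0.07. The cluster chr13:67038596-67827002 held 0 and chr7:29768552-30169750 held 1. Their median exon GC content was 56.0%, against 43.2% in the 162 Zfp-type genes. Of the 22 clusters with at least 3 genes tested, 19 had a median below 0 and 17 held a gene that passed, with medians from -0.53 to 0.14.

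**Figure D3:**
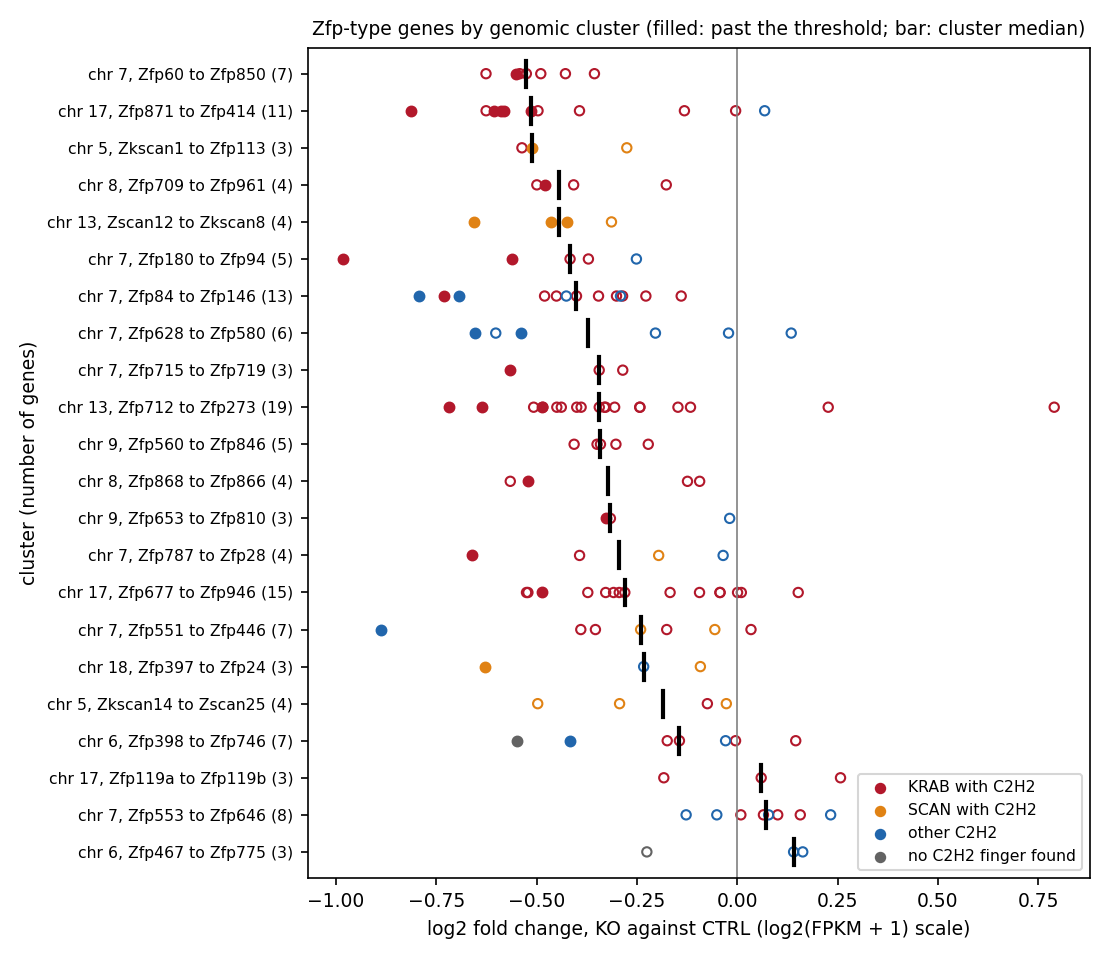
Log2 fold change of the Zfp-type genes (horizontal axis, log2(FPKM + 1) scale) in each of the 22 clusters with at least 3 of them (vertical axis, named by chromosome and by first and last gene, with the number of genes). Colours give the domain class, filled points passed the threshold and black bars are cluster medians, which run from -0.53 to 0.14, with 19 of 22 below 0.

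In a cluster on chromosome 7 (chr7:29768552-30169750) all 13 genes, from Zfp84 to Zfp146, had both KO values below both CTRL values. Their median log2 fold change was -0.40, and Zfp420, Zfp82 and Zfp260, whose promoters are shown, fell. Zfp420 was at 4.17 and 3.34 in CTRL and 1.81 and 1.66 in KO (-0.79, SE 0.128, adjusted p = 0.0378), and Zfp82 at 3.20 and 2.89 in CTRL and 1.21 and 1.69 in KO (-0.73, SE 0.140, adjusted p = 0.0433). Zfp260 was the most abundant of the 3, at 23.5 and 19.6 in CTRL and 11.6 and 14.3 in KO (-0.69, SE 0.132, adjusted p = 0.0432). The other 10, which include Zfp568, had fold changes of -0.48 to -0.14. A second cluster nearby (chr7:27689340-28014115) held 7 KRAB genes, all with both KO values below both CTRL values, a median of -0.53, and 1 gene that fell, Zfp607a (3.18 and 3.001 in CTRL, 1.65 and 1.94 in KO).

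On chromosome 17 (chr17:32765496-33631779), 5 of 11 genes fell, the most of any cluster. They were Zfp871, Zfp799, Zfp870, Zfp952 and Zfp955b, all with KRAB domains. Zfp871 was the most abundant of these, at 19.99 and 18.2 in CTRL and 12.7 and 13.4 in KO (-0.51, SE 0.075, adjusted p = 0.0351). Within the same cluster Zfp472, also a KRAB gene, was at 7.005 and 6.46 in CTRL and 7.56 and 5.94 in KO (-0.0040, adjusted p = 0.986), and Zfp414, without KRAB, at 26.8 and 31.0 in CTRL and 30.4 and 30.2 in KO (0.07, adjusted p = 0.609). A SCAN cluster on chromosome 13 (chr13:21362820-21531120) held Zscan12, Zkscan3, Zscan26 and Zkscan8, of which the last 3 fell and all 4 had both KO values below both CTRL values. Zkscan8 was at 4.001 and 3.95 in CTRL and 1.89 and 2.46 in KO (-0.66, SE 0.124, adjusted p = 0.0430), and Zscan26 at 28.1 and 26.5 in CTRL and 19.1 and 21.2 in KO (-0.42, SE 0.076, adjusted p = 0.0409).

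The largest cluster, on chromosome 13 (chr13:67038596-67827002), held 19 KRAB genes. Zfp874b, Zfp729b and Zfp738 fell, 14 of the 19 had both KO values below both CTRL values, and the median was -0.34. Its fold changes spread widest, from -0.72 in Zfp874b to 0.79 in Zfp429. Clusters did not all follow this direction. In the cluster chr7:127233061-127885996, 8 genes from Zfp553 to Zfp646 had a median of 0.07, 0 of the 8 had both KO values below both CTRL values, and their fold changes ran from -0.13 to 0.23. It held 4 KRAB genes, and the 17 genes of other kinds tested there had a median of 0.06. The clusters chr17:55864892-55949500 (Zfp119a, Zfp959 and Zfp119b) and chr6:48427697-48623227 (Zfp467, Zfp862-ps and Zfp775) also had medians above 0, at 0.06 and 0.14. No test of one cluster against another was made.

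By library, the lower values were present in both KO pools. The median deviation of the 295 genes from their 4-library mean, in log2(FPKM + 1), was 0.15 and 0.12 in the CTRL libraries, -0.16 for KO 1 and -0.09 for KO 2. For KRAB genes it was 0.21, 0.14, -0.23 and -0.11. The 2 KO libraries thus differed from each other in size, and KO 1 lay lowest. KO 1 had the highest sums of myeloid, B cell and erythroid markers. CTRL 1 had the next highest sums but lay highest, both over the 295 genes and over the KRAB genes. A link between these sums and the deviations was not tested. Over all genes tested the 4 medians lay between -0.01 and 0.02.

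**Figure D4:**
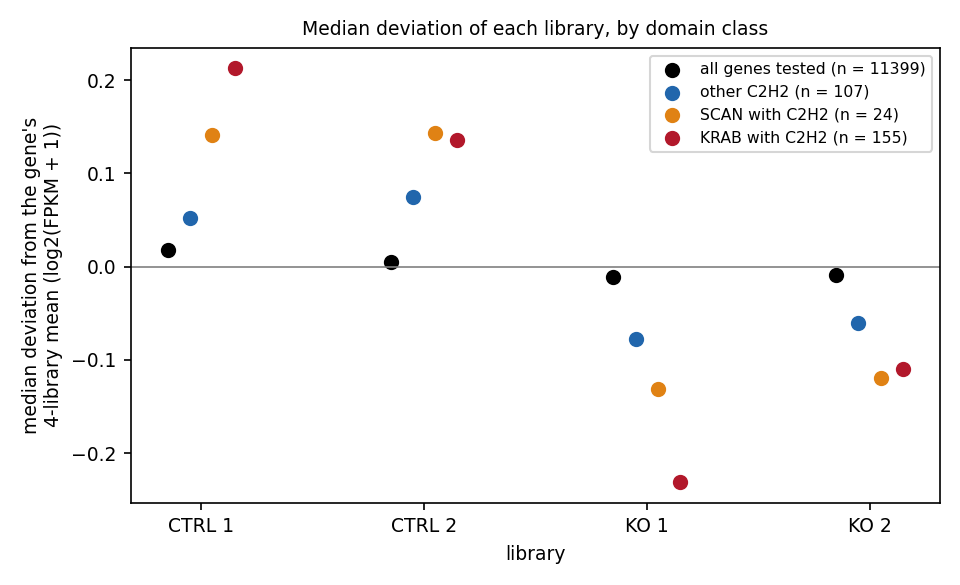
Median deviation of each library (horizontal axis) from the gene's mean over the 4 libraries, in log2(FPKM + 1) (vertical axis), for all genes tested and for 3 domain classes of Zfp-type genes. Each point is a median over the number of genes given in the legend. KRAB genes run from 0.21 in CTRL 1 to -0.23 in KO 1, while all genes tested stay within 0.02 of 0.

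Base composition moved with the fold change. The median GC content of exons was 44.2% in the 295 genes, 41.2% in the KRAB genes and 49.6% in all genes tested. Across the Zfp-type genes, which share the same 4 libraries and are not independent, Spearman's correlation of the fold change was 0.32 with GC content, -0.31 with the number of C2H2 fingers, 0.32 with the mean FPKM and -0.06 with exon length. Genes whose direction the filter fixed are included, and all of them had a low mean FPKM. The correlation with GC content was 0.04 within the 155 KRAB genes and 0.31 within the 107 other C2H2 genes. Over all genes tested, Spearman's correlation was 0.23 with GC content, -0.13 with the number of fingers, 0.14 with the mean FPKM and -0.18 with exon length. With each library's trend on GC content removed, 37 Zfp-type genes were called lower and 2 higher, where 503 and 696 of all 11399 genes tested were. All 45 genes that fell kept a fold change below 0 and 35 of them passed. The median was then -0.18 over the Zfp-type genes, against 0.00 over all genes. With the trend on exon length removed, 28 of the 45 passed and the median was -0.23. The fold changes of Zfp931, Zfp984 and Zfp729b, with GC contents of 33.2%, 36.5% and 38.1%, were -0.65, -0.37 and -0.49 and became -0.42, -0.20 and -0.34 after removal of the GC trend, past the threshold no longer (adjusted p of 0.0997, 0.0975 and 0.0885).

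**Figure D5:**
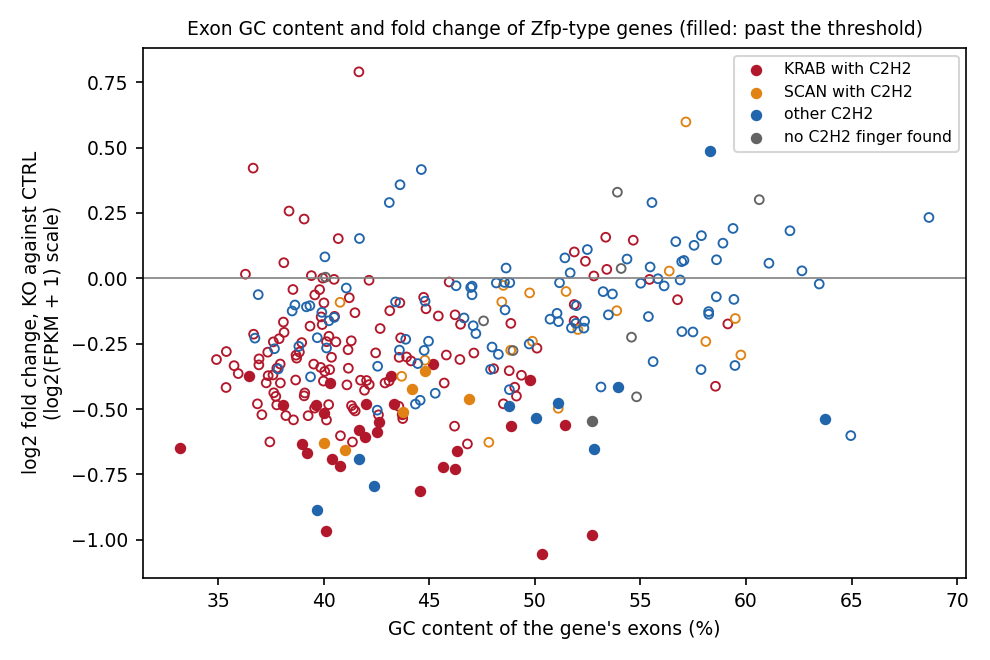
Exon GC content in percent (horizontal axis) and log2 fold change on the log2(FPKM + 1) scale (vertical axis) of the Zfp-type genes. Colours give the domain class and filled points passed the threshold. KRAB genes lie mostly at low GC content and below 0, while the other C2H2 genes reach from low to high GC content.

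Many Zfp genes are close copies, and how the authors treated reads that match several genes was not stated. Of the 295 genes, 154 shared no 100-base stretch with transcripts of any other annotated gene, and 17 of these fell, with a median of -0.24. Among 45 genes that shared more than 10% of such stretches, 10 fell, with a median of -0.37. Of the 45 genes that fell, 17 shared none, and 6 overlapped another gene. Zfp783 and Zfp956 overlap on the same strand and cannot be told apart where they do.

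The partners through which KRAB proteins act were read from a list. Of 31 genes for TRIM28, SETDB1, HP1, the HUSH complex, NuRD and related factors, 2 fell and 1 rose, which is near the 4.65% and 5.10% of all genes tested, with a median of -0.01. Trim28 stood at 67.4 and 69.9 in CTRL and 80.5 and 72.4 in KO (0.15, adjusted p = 0.203), and Setdb1 at 18.2 and 17.8 in CTRL and 16.5 and 16.7 in KO (-0.11, adjusted p = 0.248). Tasor, a subunit of the HUSH silencing complex, fell from 13.8 and 12.2 in CTRL to 8.77 and 9.69 in KO (-0.45, adjusted p = 0.0474). Atrx, a chromatin remodeller of heterochromatin, fell from 39.0 and 40.3 in CTRL to 30.5 and 32.3 in KO (-0.33, adjusted p = 0.0422). Mta2, a subunit of NuRD, rose from 102 and 102 in CTRL to 120 and 121 in KO (0.24, adjusted p = 0.0496). None of the 3 calls was stable. All 3 were lost with all genes above 0 tested, with no variance trend, with the exon length trend removed and with any library left out. Those of Tasor and Atrx were also lost with the GC trend removed, those of Tasor and Mta2 with quantile normalization, and that of Mta2 with a pseudocount of 0.1, libraries scaled to the same sum and the replicate block.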

How the data were processed

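RNA was measured in 4 libraries of splenic Treg cells, 2 per genotype. The authors mapped the 150 bp read pairs to mm10 with HISAT2 2.2.1, counted them with featureCounts 2.0.1 and deposited FPKM values, and their own comparison used edgeR 3.34.0 on the counts. Gene length, annotation version, strand setting and the handling of multi-mapped reads are not given in the sources used here. Columns headed WT 1 and WT 2 were taken for CTRL 1 and CTRL 2.

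KO was compared with CTRL with limma 3.58.1 (R 4.3.3) on log2(FPKM + 1), with eBayes and its trend option. All 11399 genes with an FPKM of 1 or more in 2 or more libraries entered, the test was two-sided, and Benjamini-Hochberg adjustment covered all of them. A count model was not used, because the deposited values are FPKM. Reads were recovered from the steps of low FPKM values as lower bounds. Of 19888 genes above 0, 100.0% came out whole, within 0.0001 reads or, at high counts, a wider allowance. Genes seen in only 1 library were set to 1 read without a check. At high counts, or where few libraries are above 0, a whole-number match can also arise by accident. The share is therefore not a check of the recovered reads. As an alternative, limma-voom was run on these reads and called 1013 of all genes lower and 877 higher. The fit was tested on simulated data.

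GENCODE vM21 gave positions, exon lengths and GC contents. KRAB and SCAN domains were found with weight matrices (at least 20 bits) and fingers with a C2H2 pattern in its translated coding sequences, in place of a protein table, which was not used here. A gene below the score may still hold a degenerate domain. Promoters came from RefSeq (GRCm38.p6).

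The members, the partner list and the tests were chosen with earlier results of these data known. Genes named are the 15 lowest and 15 highest fold changes among those past the threshold (the latter being Zfp574 and 14 genes that fell), the 10 of highest FPKM, 28 with a known function, of which 26 were among the 295, the clusters, partners past the threshold and Setd2. KRAB genes under other symbols, Zfp248, Zfp418, Zfp429, Zscan10, Zfp472 and Zfp414 were named after their values were seen. Alternatives covered the pseudocount, filter, scaling, variance model, replicate block, GC content, exon length and leaving out each library.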

Additional observations from a re-analysis of the deposited data

How the results depend on the processing

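The count of Zfp-type genes called lower (45) ran from 26 with quantile normalization to 92 with limma-voom on recovered reads, and was 0 when all genes above 0 were tested, where 129 of the 295 were lower and 9 higher at an unadjusted p under 0.05. The other settings gave 31 to 64 without the replicate block. Over all genes tested, 479 were called lower with quantile normalization, 1013 with limma-voom and 0 with all genes above 0 tested. The count called higher (1) was 0 with all genes above 0 tested and with no variance trend, and 2 with the GC trend removed and with limma-voom. The median log2 fold change (-0.26) was -0.30 with a pseudocount of 0.1, -0.22 with quantile normalization, -0.18 with the GC trend removed and -0.31 with limma-voom. Other filters changed the set of genes. The median was -0.17 with all genes above 0 tested (408 Zfp-type genes, and still -0.26 over the 295) and -0.18 with a mean FPKM above 5 (164 Zfp-type genes). Of the 31 partners, 0 were higher with a pseudocount of 0.1, all genes above 0 tested, libraries scaled to the same sum, quantile normalization and no variance trend, and 2 with the GC trend removed. There were 0 lower with all genes above 0 tested, no variance trend and the exon length trend removed, 1 with the GC trend removed and 4 with limma-voom. With 1 library left out, all 4 of these counts were 0 in every case, and the median ran from -0.29 to -0.21. Of single genes, Zfp326 turned from -0.10 to 0.0399 with the GC trend removed, and Zfp36 (-0.0117 to 0.09), Zfp64 (-0.0055 to 0.15) and Zfp91 (-0.0191 to 0.10) crossed 0 when 1 library was left out. None of these genes passed the threshold. Of the 29 named genes that fell, 0 changed direction in any setting. Fewer samples enter the fit where a library is left out, and more genes where low genes are kept. Why the calls moved was not tested.

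Same-numbered libraries share a replicate number, and whether they also share a litter or a batch is not stated. The study's methods say only that the pools came from littermates. The main fit used no block. The deviations of same-numbered libraries had a Pearson correlation of -0.04 over the 295 genes and 0.34 over all genes tested. Spearman's correlation was -0.12 and 0.06. With the replicate number as a block, 67 Zfp-type genes were called lower, 44 of the 45 among them, and 2 higher. The block raised the calls over all 11399 genes tested as well, to 805 lower and 968 higher. Of the partners 3 were lower and 0 higher with it.

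Depth does not limit the abundant genes, but the weakest value of a Zfp-type gene rests on at least 14 reads in a library, and with 2 libraries per genotype the median standard error was 0.105 for the Zfp-type genes, against 0.087 for all genes tested.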
